A study of Homo sapiens with 24 samples.

Results

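The Krüppel-like factors (KLFs) were followed as mRNA through the replacement of methionine (Met) by its precursor homocysteine (Hcy) in a pair of breast cancer cell lines. The members were the 10 genes KLF2, KLF3, KLF4, KLF5, KLF6, KLF7, KLF9, KLF10, KLF11, and KLF13, taken by symbol from 26645 gene entries of the count table. All 10 passed the filter on low counts, which left 14741 genes for testing. RNA came from MDA-MB-468 (MB468), a triple-negative breast cancer line that needs Met to proliferate, and from MDA-MB-468res-R8 (MB468res-R8, here R8), a Met-independent revertant that is 1 clone, obtained by long culture of the parental line in Hcy medium. Cells of both lines were taken at 0 h from Met+ medium (100 µM Met) and at 0.5, 2, and 12 h after a switch to Met-Hcy+ medium, in which 370 µM Hcy stood in for Met. Each of the 8 groups had 3 libraries. No group was given fresh Met+ medium for the same times, so the change of medium, time in culture, and the loss of Met cannot be told apart.

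KLFs are zinc finger transcription factors that bind GC-rich boxes and CACCC boxes in DNA through a shared C-terminal domain of C2H2 fingers. They share these boxes with the SP proteins, the other branch of the family. The N-terminal parts differ: KLF2, KLF4, KLF5, KLF6, and KLF7 are best known as activators that recruit acetyltransferases, KLF3 as a repressor that binds CtBP proteins, and KLF9, KLF10, KLF11, and KLF13 as factors that can recruit the SIN3A corepressor. Several are immediate-early or delayed-early genes that respond to serum, stress, or hormones, and in epithelia KLF4 and KLF5 are known for opposite roles in differentiation and proliferation.

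Library totals of gene counts ran from 11713037 to 36402932 with a median of 20452797, and spike-in RNAs took 0.201 to 0.303% of counts. The epithelial markers EPCAM, CDH1, KRT8, KRT18, KRT19, and KRT7 were high in every library, with a lowest value of 255 CPM (counts scaled to the library total) for CDH1, and the basal markers ran from 1540 CPM upward for KRT5, 2100 for EGFR, 283 for KRT17, and 69.8 for KRT14. PGR, whose product is absent by definition in triple-negative cancer, was at 0 in 18 of 24 libraries, whereas ESR1 was at 4.15 to 22.6 CPM. Of markers of other cell types, PTPRC, CD3E, DCN, and COL1A2 stayed under 0.2 CPM, PDGFRB reached 0.656, and the endothelial genes PECAM1, CDH5, and VWF reached 2.67, 2.70, and 1.56. COL1A1 (14.6 to 73.2 CPM) and CD14 (21.2 to 159 CPM) were measured in all libraries. The library of replicate 2 of MB468 at 2 h stood apart by its non-polyadenylated RNAs, with 8251 counts of RN7SK where the next highest library had 357. Leaving it out left the number of called KLFs in each comparison within 1.5 times that with all libraries.

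Normalized counts below are counts scaled by edgeR's TMM factors to the mean library, and a log2 fold change was called where edgeR's quasi-likelihood test gave a Benjamini-Hochberg adjusted p under 0.05 over 14741 genes. Errors of log2 fold changes are SE, derived as the absolute log2 fold change over the square root of the test's F value. The libraries are numbered replicates, and since the labels do not say whether they came from separate cultures, p-values measure the spread between these libraries. Levels of different genes are compared only per kb of the MANE Select transcript.

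Start regions are shown for 6 members that differ in course: KLF2, KLF4, KLF6, and KLF9, which rose at 0.5 h in both lines, and KLF7 and KLF11, which did not pass at 0.5 h in MB468 and passed at 2 h. They were read from RefSeq's promoter table (GRCh38.p14), in which 13 promoters of 8 of the 10 members were searched over the 250 bases before the start site, and the promoters of KLF3 and KLF10 were not analysed here. Stretches without an annotated exon are given 5′ to 3′ on the gene's strand. The KLF7 stretch is from the second of 4 promoters searched and the KLF11 stretch from the second of 2. The third KLF7 promoter, not shown, had 4 GC boxes. Capitals mark GC boxes (GGGCGG on either strand), the MEF2 site of KLF2, and the CRE (TGACGTCA) of KLF11. They also mark the CArG box of KLF7, the box bound by SRF.
KLF2, plus strand, chr19:16324676-16324825: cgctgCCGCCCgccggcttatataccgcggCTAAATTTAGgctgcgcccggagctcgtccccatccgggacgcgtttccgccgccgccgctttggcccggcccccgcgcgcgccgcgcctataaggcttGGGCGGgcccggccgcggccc
KLF4, minus strand, chr9:107489830-107489969: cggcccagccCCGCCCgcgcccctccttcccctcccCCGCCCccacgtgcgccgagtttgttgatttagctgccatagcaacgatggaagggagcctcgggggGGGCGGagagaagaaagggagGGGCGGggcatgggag
KLF6, minus strand, chr10:3785282-3785421: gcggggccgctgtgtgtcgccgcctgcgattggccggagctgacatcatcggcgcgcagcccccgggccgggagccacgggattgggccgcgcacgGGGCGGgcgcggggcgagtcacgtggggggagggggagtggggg
KLF9, minus strand, chr9:70414658-70414807: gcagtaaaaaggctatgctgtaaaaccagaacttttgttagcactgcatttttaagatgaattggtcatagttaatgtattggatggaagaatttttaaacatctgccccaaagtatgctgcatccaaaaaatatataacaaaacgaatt
KLF7, minus strand, chr2:207167268-207167396: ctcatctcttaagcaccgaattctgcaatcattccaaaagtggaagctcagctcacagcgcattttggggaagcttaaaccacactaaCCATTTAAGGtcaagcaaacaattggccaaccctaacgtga
KLF11, plus strand, chr2:10043996-10044136: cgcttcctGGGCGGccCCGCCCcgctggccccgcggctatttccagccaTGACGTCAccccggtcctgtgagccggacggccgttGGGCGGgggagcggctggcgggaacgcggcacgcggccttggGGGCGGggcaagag

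KLF2 had a GC content of 80.0% over its 250 bases and KLF9 one of 32.4%, against a median of 58.0% over 35116 promoters. GC boxes were found in 42.6% of all promoters and in those of KLF2, KLF4, KLF6, KLF11, and KLF13, each of which had at least 2, and in 1 or more promoters of KLF5 and KLF7. The KLF9 promoter had no GC box among these letters and matched CCAAT at 2 positions, a box found in 32.0% of promoters. The MEF2 match of KLF2 began 120 bases before the start site (2.80% of promoters hold such a match), the CRE of the second KLF11 promoter 176 bases before (1.65%), and the CArG box of the second KLF7 promoter 62 bases before (1.16%). The TATAAA box (10.7%) was found in a KLF5 promoter, and the CACCC box, counted on both strands, was in 54.7% of promoters. The AP-1 site TGACTCA (4.20%) and the glucocorticoid response element (0.12%), by its consensus, were not among the letters of the members' windows.

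In Met+ medium the 10 mRNAs spanned a wide range of levels per length. In MB468, KLF5 was at 844 ± 26.0 normalized counts per kb (SD, n = 3), KLF6 at 697 ± 14.0, and KLF10 at 420 ± 38.9. KLF11 (249), KLF9 (167), KLF3 (150), KLF7 (108), and KLF4 (66.4) followed, and KLF13 (15.9 ± 2.97) and KLF2 (6.16 ± 2.50) were the lowest. In R8, KLF6 at 1590 ± 77.9 stood above KLF5 at 784 ± 71.3, and KLF4 at 233 ± 8.51 was above KLF11, KLF3, KLF9, and KLF7 per kb. KLF2 was read from 11 to 23 raw counts per library in MB468 at 0 h, so its values carry the widest errors of the group.

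**Figure D1:**
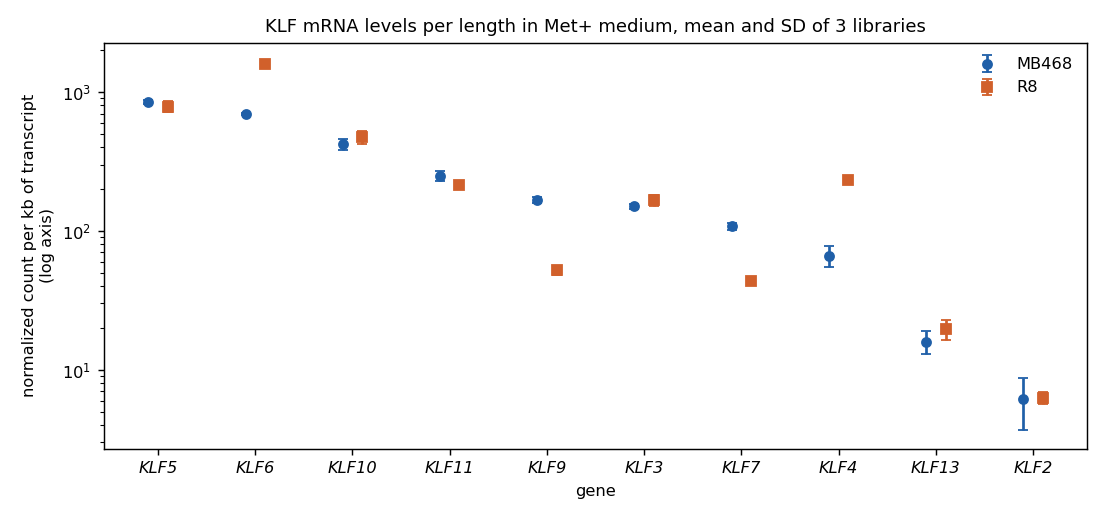
Levels of the 10 KLF mRNAs in Met+ medium as normalized counts per kb of transcript on a log axis, with points for the mean and bars for the SD of 3 libraries in each line. KLF4 and KLF6 sit higher in R8, KLF7 and KLF9 sit higher in MB468, and the other 6 lie close together in both lines.

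R8 and MB468 differed in Met+ medium most in KLF4, KLF6, KLF7, and KLF9. KLF4, a factor of epithelial differentiation and cell cycle arrest, had 217, 157, and 211 normalized counts in the 3 MB468 libraries and 713, 679, and 664 in the R8 libraries. All R8 libraries lay above all MB468 libraries, and the log2 difference was 1.83 ± 0.129 (3.56-fold, edgeR quasi-likelihood adjusted p = 6.63e-12). KLF6, a widely expressed early-response activator, had 3210, 3130, and 3260 normalized counts in MB468 and 6980, 7250, and 7690 in R8, a log2 difference of 1.19 ± 0.0509 with no overlap. KLF9, a glucocorticoid- and thyroid hormone-responsive repressor, went the other way, with 864, 827, and 911 normalized counts in MB468 and 293, 263, and 255 in R8, a log2 difference of -1.67 ± 0.0809 (edgeR quasi-likelihood adjusted p = 9.65e-21). KLF7, known from neuronal development and adipocytes, had 906, 853, and 954 normalized counts in MB468 against 358, 371, and 354 in R8 (log2 difference -1.32 ± 0.0773). KLF11 was lower in R8 by a smaller step (-0.21 ± 0.0636).

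KLF3 (0.15 ± 0.0612) and KLF10 (0.17 ± 0.0594) passed the test as higher in R8 with libraries that overlapped between the lines. The KLF3 call was lost without MB468 replicate 2 or 3 or R8 replicate 1 or 2 (log2 differences 0.10 to 0.14), and the KLF10 call without MB468 replicate 1 or R8 replicate 2 or 3 (0.11 to 0.13). KLF5, KLF2, and KLF13 did not pass. KLF5 (-0.10) passed without R8 replicate 1 (-0.14) or 2 (-0.15), and KLF13 (0.30) without MB468 replicate 2 (0.47). In all, 4 members were higher and 3 lower in R8, beside 26.4% higher and 27.1% lower among all genes tested. Scaling to spike-in totals moved the median of all genes by -0.31 log2 and the share of calls that were higher from 49.4% to 15%. On that scale 2 members were higher (KLF4, KLF6) and 4 lower (KLF5, KLF7, KLF9, KLF11), and KLF3, KLF10, KLF2, and KLF13 turned to the other side of 0 without being called.

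Within 0.5 h of Met-Hcy+ medium, 7 members rose and 1 fell in MB468, beside 17.6% higher and 16.4% lower among all genes tested, and the median log2 fold change was 0.83 over the members and 0.01 over all genes. KLF6 rose from the 0 h values above to 11800, 11400, and 10500 normalized counts, a log2 fold change of 1.81 ± 0.0512 (3.52-fold, edgeR quasi-likelihood adjusted p = 3.57e-26). KLF10, first described as a TGF-beta-inducible early gene, had 1120, 1210, and 1340 normalized counts at 0 h and 3330, 3320, and 3200 at 0.5 h (1.43 ± 0.0570). KLF3, the CtBP-binding repressor, had 866, 809, and 847 and then 2180, 2080, and 2140 normalized counts (1.35 ± 0.0585). In each of these genes the lowest library at 0.5 h was above 2 times the highest at 0 h.

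KLF2, an activator known from endothelium and quiescent T cells, had 9.87, 18.3, and 23.9 normalized counts at 0 h and 37.2, 33.5, and 61.6 at 0.5 h, which did not overlap (1.33 ± 0.317). KLF4 reached 482, 326, and 477 normalized counts (1.15 ± 0.136), with replicate 2 the lowest at both times. KLF9 reached 1280, 1180, and 1250 (0.51 ± 0.0711). KLF5, a proliferative factor of basal epithelium, passed with 0.14 ± 0.0508, and this call was lost without replicate 2 or 3 at 0 h or replicate 1 or 2 at 0.5 h (0.11 to 0.13). KLF13, a factor known from lymphocytes, fell from 101, 131, and 92.7 to 66.9, 69.3, and 80.8 normalized counts (-0.62 ± 0.185). The KLF13 call was lost without replicate 2 at 0 h (-0.46). KLF7 (0.05 ± 0.0713) and KLF11 (0.03 ± 0.0634) did not pass. Spike-in scaling moved the median of all genes by -0.20 and the share of higher calls from 51.8% to 14.0%, and 5 members were then higher and 1 lower. KLF9 (0.30) and KLF5 (-0.07) lost their calls there, and KLF5, KLF7, and KLF11 turned to the other side of 0.

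At 2 h in MB468, 8 members were called above 0 h and 0 below, beside 8.88% and 7.47% of all genes tested. The median log2 fold change was 0.74 over the members. At an unadjusted p under 0.05, edgeR and DESeq2 also gave 0 lower. The members did not keep the same course between 0.5 and 2 h. KLF4 had 540, 597, and 661 normalized counts at 2 h (1.64 ± 0.134 over 0 h), and KLF9 had 1980, 1940, and 1950 (1.18 ± 0.0705, edgeR quasi-likelihood adjusted p = 9.22e-17). Both were above their 0.5 h values, by 0.49 ± 0.124 and 0.67 ± 0.0695. KLF7 (1330, 1470, and 1250 normalized counts) and KLF11 (1350, 1400, and 1330), a SIN3A-binding factor known from pancreas and diabetes genetics, passed the test only from this time point on in MB468, at 0.58 ± 0.0708 and 0.44 ± 0.0631 over 0 h. These were the 4 members called higher from 0.5 to 2 h, beside 16.3% of all genes tested.

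KLF10 stayed at 3230, 3140, and 3310 normalized counts (1.41 ± 0.0576 over 0 h), with a step from 0.5 h of -0.03 (95% interval -0.13 to 0.08). KLF6 came down to 6580, 6870, and 6770 (step -0.74 ± 0.0497) and KLF3 to 1200, 1250, and 1230 (step -0.80 ± 0.0585), and both were still above 0 h, at 1.08 ± 0.0514 and 0.54 ± 0.0617. These were the 2 members called lower from 0.5 to 2 h, beside 16.5% of all genes tested. Spike-in scaling left 1 higher (KLF9) and 2 lower (KLF3, KLF6) in this step, with 18.3% in place of 49.7% of all calls higher. KLF5 was at 0.27 ± 0.0512. KLF2 at 0.89 ± 0.335 did not pass, though its libraries (30.9, 27.2, and 35.1) lay above those at 0 h, and it passed without replicate 3 at 0 h (1.13). Under spike-in scaling, which moved the median of all genes by -0.42 and the share of higher calls from 54.3% to 2.52%, KLF4 (1.20), KLF10 (0.98), KLF9 (0.75), and KLF6 (0.65) were still called higher. KLF3 (0.12), KLF7 (0.16), and KLF11 (0.02) were not, KLF5 turned to -0.16, and KLF13 at -0.78 was called lower.

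By 12 h the members of MB468 had separated into 4 above and 3 below 0 h, beside 36.1% and 34.7% of all genes tested, and the median over the members was 0.08. KLF10 was the member furthest above, with 2770, 2890, and 2840 normalized counts (1.22 ± 0.0562, edgeR quasi-likelihood adjusted p = 1.78e-21). KLF11 at 1420, 1390, and 1290 (0.45 ± 0.0607) and KLF7 at 1210, 1200, and 1140 (0.39 ± 0.0687) were above 0 h too. The KLF3 call (0.14 ± 0.0597) was lost without replicate 2 or 3 of either time point (0.10 to 0.13) and with DESeq2's size factors (0.12). KLF9 had dropped to 470, 388, and 428 normalized counts, below all 0 h libraries (-1.0 ± 0.0741), and KLF6 to 2290, 2160, and 1980 (-0.58 ± 0.0521). KLF13 was at -0.61 ± 0.175. KLF4 with 177, 188, and 189 normalized counts was back in the range of 0 h (-0.06, 95% interval -0.34 to 0.22), and KLF5 was at 0.01 (-0.09 to 0.11).

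Between 2 and 12 h in MB468, 0 members were called higher and 8 lower, beside 34.6% higher and 35.1% lower among all genes tested. Both edgeR and DESeq2 gave 0 higher at an unadjusted p under 0.05 too. Spike-in scaling left 3 lower (KLF4, KLF6, KLF9) and 0 higher, with 65.4% in place of 49.6% of all calls higher. The falls were deepest in KLF9 (-2.18 ± 0.0733), KLF4 (-1.70 ± 0.130), and KLF6 (-1.65 ± 0.0521). KLF10 (-0.19) and KLF7 (-0.19) moved little, and the KLF7 call was lost without replicate 2 at 2 h (-0.13) or replicate 3 at 12 h (-0.17). KLF2 (-0.71) lost its call without replicate 1 or 3 at 2 h or replicate 2 or 3 at 12 h (-0.72 to -0.49), and also with the replicate block (-0.69), with DESeq2's Wald test (-0.73), and without the low-count filter (-0.71), which left 7 members lower. Spike-in scaling left 1 member higher (KLF10, 0.98) and 3 lower (KLF6, KLF9, KLF13) at 12 h against 0 h, with a shift of -0.23 in the median of all genes and 30.0% of calls higher in place of 51.0%. KLF3, KLF5, and KLF2 turned to the other side of 0 on that scale, at -0.10, -0.23, and -0.06.

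**Figure D2:**
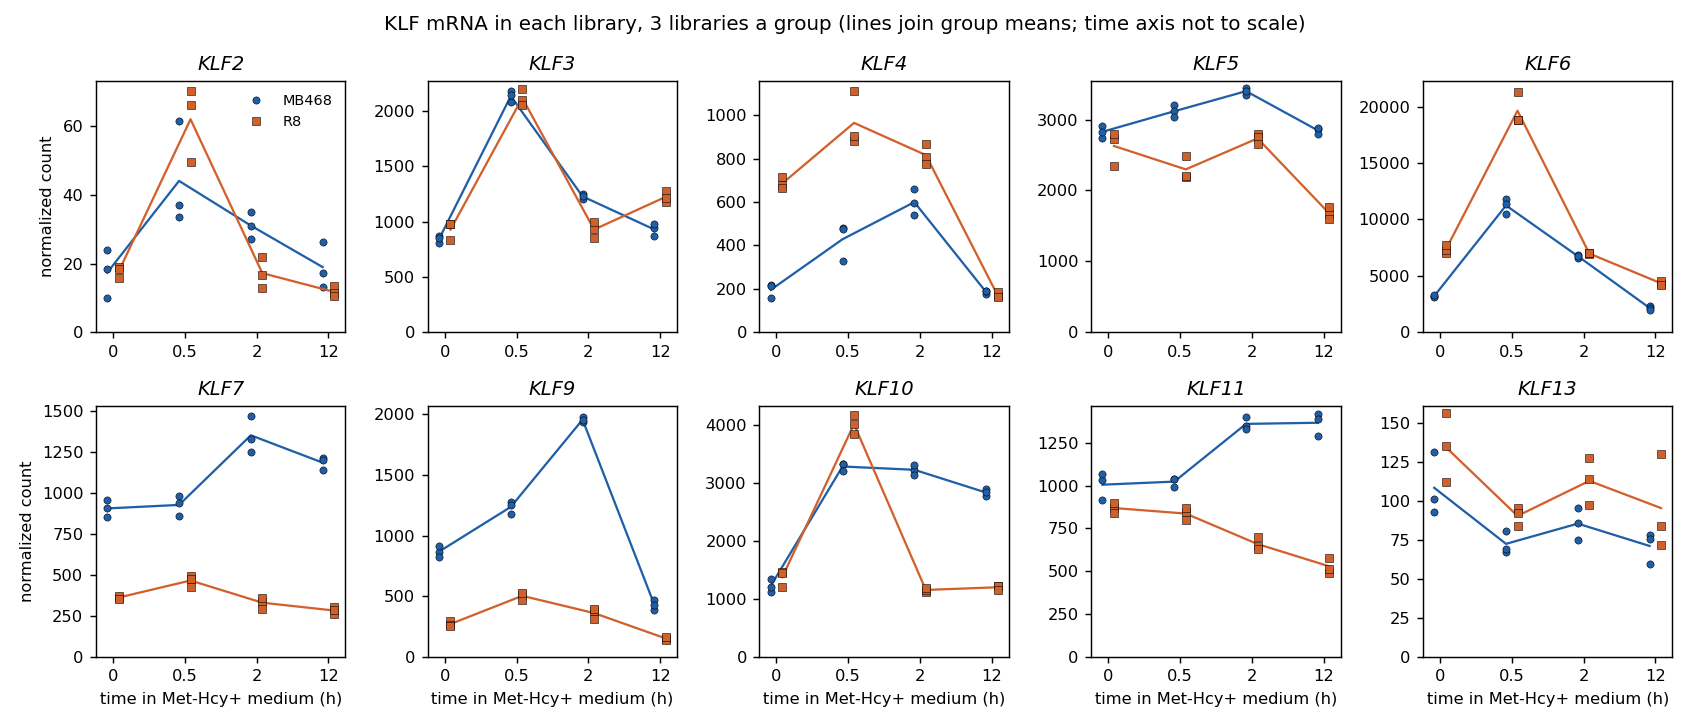
Normalized counts of the 10 KLF mRNAs in each of 24 libraries against hours in Met-Hcy+ medium (not to scale), with a panel per gene, circles for MB468, squares for R8, and lines through the group means. In KLF10 the 3 R8 libraries are down to 1120 to 1180 at 2 h while the MB468 libraries stay at 3140 to 3310.

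R8 answered the same medium at 0.5 h with 7 members higher and 2 lower, beside 17.4% and 16.3% of all genes tested, and with a median log2 fold change of 0.70 over the members. KLF6 had 21300, 18800, and 18800 normalized counts (1.42 ± 0.0493 over 0 h). KLF10 went from 1210, 1470, and 1440 to 4180, 4020, and 3840 (1.55 ± 0.0561, edgeR quasi-likelihood adjusted p = 8.24e-24). KLF3 went from 973, 977, and 830 to 2200, 2100, and 2050 (1.19 ± 0.0579), and KLF2 from 15.9, 19.0, and 18.3 to 49.7, 70.2, and 66.3 (1.80 ± 0.304). None of these groups overlapped.

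KLF9 rose to 510, 472, and 527 normalized counts (0.89 ± 0.0848), still below the 827 to 911 of MB468 before the switch. KLF4 rose to 1110, 879, and 905 (0.50 ± 0.110) and KLF7 to 492, 476, and 427 (0.37 ± 0.0819). KLF5 fell by 0.19 on the log2 scale with overlapping libraries, and KLF13 fell by 0.58, a call lost without replicate 1 at 0 h (-0.45). KLF11 was at -0.05 (95% interval -0.18 to 0.07). Spike-in scaling gave 7 members higher and 0 lower (1 lower at an unadjusted p under 0.05), with KLF5 (-0.14) and KLF13 (-0.53) no longer called, a median shift of 0.04 over all genes, and 59.0% in place of 51.5% of calls higher.

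By 2 h much of this had gone in R8. Between 0.5 and 2 h, 7 members fell and 1 rose, beside 17.9% lower and 17.4% higher among all genes tested, and KLF10 fell by 1.80 ± 0.0568, KLF2 by 1.79 ± 0.300, KLF6 by 1.49 ± 0.0493, and KLF3 by 1.18 ± 0.0576 on the log2 scale. Spike-in scaling gave 0 higher and 7 lower for this step, with 35.5% in place of 49.3% of all calls higher. Against 0 h, 1 member was higher and 2 lower, beside 2.52% and 1.85% of all genes tested. KLF9 with 378, 396, and 308 normalized counts was the member still above 0 h (0.43 ± 0.0867, edgeR quasi-likelihood adjusted p = 0.00104). KLF10 with 1120, 1160, and 1180 was below its 0 h libraries (-0.24 ± 0.0596), a call lost without replicate 2 or 3 at 0 h or replicate 1 at 2 h (-0.22 to -0.19), and KLF11 with 646, 632, and 697 was lower too (-0.41 ± 0.0657). KLF6 with 6900, 7000, and 7010 normalized counts stood at -0.07 (95% interval -0.16 to 0.03) and KLF3 at 0.00 (-0.11 to 0.12). KLF4 was at 0.25 (0.03 to 0.47), and none of them was called. The KLF4 libraries at 2 h (869, 806, and 774) lay above those at 0 h, and KLF4 was called higher without the low-count filter. Spike-in scaling left 0 members called at 2 h in R8 by edgeR, with 1 higher and 2 lower at an unadjusted p under 0.05. Without spike-in scaling, DESeq2's Wald test with its own size factors called 1 higher and 2 lower.

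At 12 h R8 showed 8 members below 0 h and 1 above, beside 31.1% and 30.2% of all genes tested, with a median of -0.61 over the members and -0.02 over all genes. KLF4 fell furthest, from 713, 679, and 664 to 165, 183, and 161 normalized counts (-2.02 ± 0.131, edgeR quasi-likelihood adjusted p = 1.10e-12), all within the range of the MB468 libraries at 0 h (157 to 217). KLF9 fell to 148, 142, and 163 (-0.85 ± 0.0980), KLF6 to 4270, 4520, and 4200 (-0.75 ± 0.05), KLF11 to 577, 492, and 515 (-0.72 ± 0.0670), and KLF5 to 1660, 1770, and 1590 (-0.65 ± 0.0525). KLF7 fell by 0.36, KLF13 by 0.52, and KLF10 by 0.19 on the log2 scale. The KLF13 call was lost without replicate 1 at 0 h or replicate 1 or 3 at 12 h (-0.42 to -0.33), and the KLF10 call without replicate 2 at 0 h or replicate 3 at 12 h (-0.14 for each).

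KLF3 was the exception, at 1180, 1280, and 1210 normalized counts against 973, 977, and 830 at 0 h (0.39 ± 0.0593). KLF2, at 13.4, 11.4, and 10.4, was not called (-0.57 ± 0.364). From 2 to 12 h, 1 member rose (KLF3) and 6 fell in R8, beside 30.7% higher and 31.8% lower among all genes tested, with KLF4 at -2.27 ± 0.129 and KLF9 at -1.27 ± 0.0937. The KLF7 fall in that step (-0.21) was lost without replicate 1 or 3 of either time point (-0.19 to -0.13), and KLF13 (-0.27) was called without replicate 2 at 12 h (-0.54). Spike-in scaling gave 1 higher and 6 lower at 12 h against 0 h, with KLF7 (-0.33) and KLF10 (-0.18) no longer called. From 2 to 12 h it gave 1 higher and 4 lower, with KLF7 (-0.15) and KLF11 (-0.26) no longer called. In that step 53.1% of all calls were higher, in place of 49.1%.

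**Figure D3:**
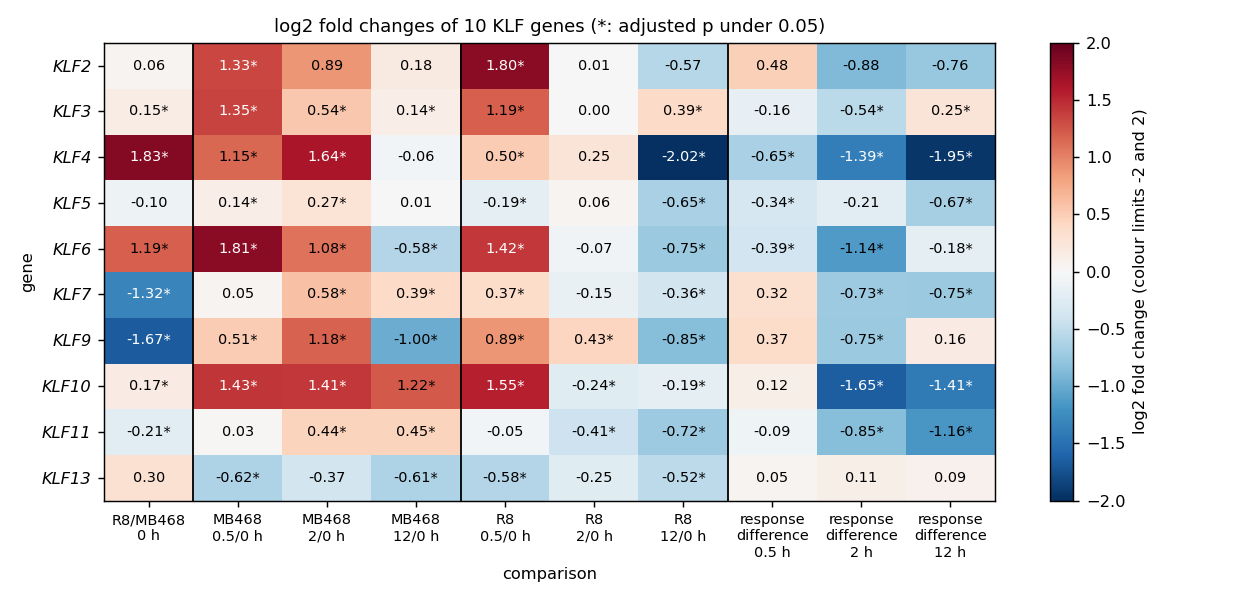
Log2 fold changes of the 10 KLF genes (rows) in 10 comparisons (columns: R8 over MB468 at 0 h, each time over 0 h in MB468 and in R8, and the R8 response minus the MB468 response), with a star where the adjusted p was under 0.05. The 0.5 h columns of both lines are red for KLF2, KLF3, KLF4, KLF6, KLF9, and KLF10. At 2 h most members are red in MB468 and paler in R8. In that R8 column KLF9 (0.43) is starred as higher and KLF10 (-0.24) and KLF11 (-0.41) as lower.

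The responses of the lines were compared as the R8 change minus the MB468 change from the lines' own 0 h, a contrast within the same model. A negative difference means a change that was lower in R8, and says nothing of the level itself. At 0.5 h the difference was called positive for 0 members and negative for 3, beside 1.20% and 1.70% of all genes tested. At an unadjusted p under 0.05 edgeR gave 2 higher. DESeq2's Wald test called 1 higher, KLF9, as did edgeR without the low-count filter or with at least 10 counts in every library. The 3 called were KLF6 (-0.39 ± 0.0698, edgeR quasi-likelihood adjusted p = 3.94e-04), KLF5 (-0.34 ± 0.0725), and KLF4 (-0.65 ± 0.175). KLF6 and KLF4 rose in both lines, by less in R8, whereas KLF5 rose by 0.14 in MB468 and fell by 0.19 in R8. The KLF4 call was lost on leaving out any of 8 of the 12 libraries (MB468 replicate 2 and all R8 replicates at 0 h, MB468 replicates 1 and 3 and R8 replicates 2 and 3 at 0.5 h), with differences of -0.67 to -0.50. KLF10 (0.12, 95% interval -0.04 to 0.28) and KLF3 (-0.16, -0.32 to 0.00) were not called. KLF9 (0.37) passed without R8 replicate 1 at 0 h (0.45), MB468 replicate 1 at 0.5 h (0.42), or R8 replicate 2 at 0.5 h (0.42), and KLF7 (0.32) without R8 replicate 3 at 0.5 h (0.39). Spike-in scaling moved the median of all genes by 0.26 and the share of higher calls from 41.4% to 79.2%, and edgeR called 0 members there, with 3 higher and 0 lower at an unadjusted p under 0.05.

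At 2 h the change from 0 h was called lower in R8 for 7 members, beside 2.88% of all genes tested. It was called higher for 0 members, beside 2.19% (0 at an unadjusted p under 0.05 by edgeR and by DESeq2). KLF10 differed by -1.65 ± 0.0828 (edgeR quasi-likelihood adjusted p = 4.46e-18), KLF4 by -1.39 ± 0.175, and KLF6 by -1.14 ± 0.0710. KLF11 (-0.85 ± 0.0911), KLF9 (-0.75 ± 0.112), KLF7 (-0.73 ± 0.110), and KLF3 (-0.54 ± 0.0864) made up the rest, so that both repressor and activator members were among them. The levels themselves did not all follow, since at 2 h KLF4 had a mean of 816 normalized counts in R8 and 599 in MB468, and KLF6 of 6970 and 6740. KLF2 (-0.88, 95% interval -1.82 to 0.05), KLF5 (-0.21), and KLF13 (0.11) did not pass, and KLF5 was called without R8 replicate 3 at 0 h (-0.28). Under spike-in scaling, with a median shift of 0.38 and 93.0% in place of 43.2% of calls higher, 3 members were called lower, namely KLF10 (-1.28), KLF4 (-0.98), and KLF6 (-0.77). KLF11 (-0.47), KLF9 (-0.37), KLF7 (-0.35), and KLF3 (-0.16) were not called there, and KLF5 turned to 0.17.

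At 12 h the change from 0 h was called lower in R8 for 6 members and higher for 1. The shares of all genes tested were 30.3% and 26.2%. KLF4 differed by -1.95 ± 0.194, KLF10 by -1.41 ± 0.0817, KLF11 by -1.16 ± 0.0904, KLF7 by -0.75 ± 0.110, and KLF5 by -0.67 ± 0.0725. KLF9, which fell in both lines, differed by 0.16 (95% interval -0.09 to 0.40) and was not called. KLF3 was the member whose change was called higher in R8 (0.25 ± 0.0841), a call lost without R8 replicate 3 at 0 h (0.18). The KLF6 call (-0.18 ± 0.0720) was lost on leaving out any of 9 of the 12 libraries (all MB468 and R8 replicates 1 and 3 at 0 h, MB468 replicates 1 and 2 and R8 replicates 1 and 3 at 12 h), with differences of -0.18 to -0.10. Spike-in scaling, with a median shift of 0.20 and 69.9% in place of 46.3% of calls higher, gave 4 lower and 1 higher: KLF4 (-1.68), KLF10 (-1.16), KLF11 (-0.92), KLF7 (-0.49), and KLF3 (0.53). KLF6 turned to 0.08 on that scale.

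**Figure D4:**
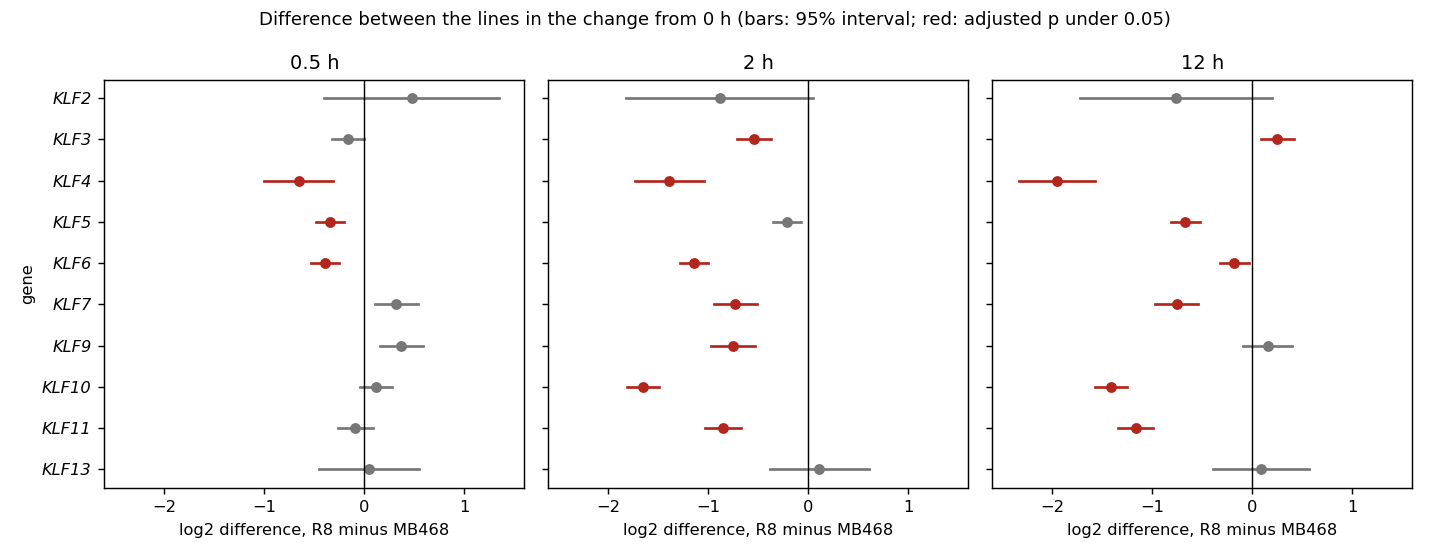
Difference of the response between the lines (R8 change from 0 h minus MB468 change from 0 h, log2) for the 10 KLF genes at 0.5, 2, and 12 h, with points for the estimate, bars for the 95% interval, and red for an adjusted p under 0.05. At 2 h the 7 called members lie between -1.65 and -0.54.

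Over the 8 groups, KLF9 had the widest range, with a highest group mean 13 times its lowest (R8 at 12 h), followed by KLF6 at 9.15 times. Ordered by mean, KLF9 ran from MB468 at 2 h through MB468 at 0.5 h and 0 h, R8 at 0.5 h, MB468 at 12 h, R8 at 2 h, and R8 at 0 h down to R8 at 12 h. In that order only MB468 at 12 h and R8 at 2 h overlapped as neighbours. In KLF5, KLF7, and KLF11 every MB468 group mean was above every R8 group mean. The libraries of the lines were apart in KLF7 and KLF11. In KLF5 they overlapped, with a lowest library of 2740 in MB468 at 0 h and a highest of 2790 in R8 at 2 h. The share of all genes with such an order was not counted. KLF13, read at 42 to 197 raw counts per library, had no neighbouring groups that did not overlap and a highest mean 1.89 times the lowest.

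Counts of related genes are to be read against the shares of all genes tested. In MB468 these were 17.6% higher and 16.4% lower at 0.5 h, 8.88% and 7.47% at 2 h, and 36.1% and 34.7% at 12 h. In R8 they were 17.4% and 16.3% at 0.5 h, 2.52% and 1.85% at 2 h, and 30.2% and 31.1% at 12 h. For the response difference they were 1.20% and 1.70% at 0.5 h, 2.19% and 2.88% at 2 h, and 26.2% and 30.3% at 12 h. The median log2 fold change over all genes lay between -0.02 and 0.01 in the comparisons with 0 h. With spike-in totals as library sizes, 240 genes were higher and 9271 of 14741 lower in MB468 at 2 h, so counts at that time turn on the scaling in every list.

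Of 17 other SP and KLF family genes, 11 passed the filter. In MB468 at 0.5 h, 4 rose and 2 fell, and those that rose furthest were KLF15 (1.50), KLF8 (0.34), and KLF12 (0.31), while KLF16 (-0.62) and SP2 (-0.28) fell. KLF8 and KLF12 bind CtBP proteins as KLF3 does. KLF15 was read at low counts, 10.8 ± 1.67 normalized counts at 0 h and 30.9 ± 3.87 at 0.5 h (SD, n = 3). In R8 at 0.5 h, 6 rose and 2 fell, with KLF15 (1.32), SP4 (0.42), and KLF12 (0.41) the furthest up, and SP6 (0.39) and SP3 (0.26) also rose while KLF16 (-0.66) and SP2 (-0.33) fell. At 2 h, MB468 had 2 higher and 2 lower and R8 had 0 of 11 called by edgeR or by DESeq2, with 2 lower at an unadjusted p under 0.05 by edgeR. Spike-in scaling gave 1 higher and 2 lower at 0.5 h and 0 and 6 at 2 h in MB468, and 5 and 1 at 0.5 h in R8.

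In MB468 at 12 h, 8 of the 11 rose, beside 36.1% of all genes tested, and 1 fell (KLF12, -0.58), with a list median of 0.60. The 8 were KLF16 and the 7 SP genes, and the highest were SP8 (3.11), SP5 (1.76), and SP4 (1.07). SP4, with 590 ± 25.5 normalized counts at 0 h and 1240 ± 91.1 at 12 h, was well covered, whereas SP8 (3.40 to 29.1) and SP5 (5.50 to 18.2) were near the floor of the filter. In R8 at 12 h, 4 rose and 5 fell. The 12 h response difference was called lower in R8 for 7 of 11 and higher for 0, beside 30.3% and 26.2% of all genes. SP5 (-2.76), SP2 (-0.81), and SP4 (-0.78) were the furthest. Spike-in scaling gave 6 higher and 1 lower in MB468 at 12 h, 3 and 3 in R8, and 0 higher and 3 lower for the difference.

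**Figure D5:**
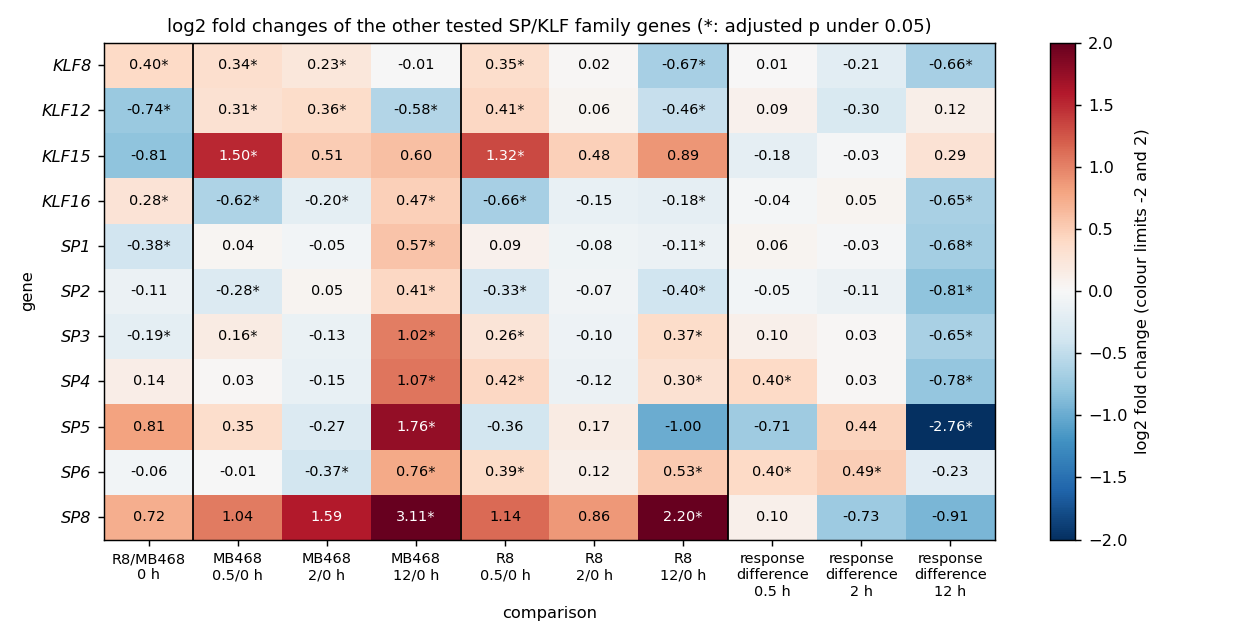
Log2 fold changes of the 11 other SP and KLF family genes that passed the filter (rows) in the same 10 comparisons (columns), with a star where the adjusted p was under 0.05. SP1, SP2, SP3, SP4, SP5, SP6, and SP8 are red in the 12 h column of MB468, and 5 of these 7 are starred and blue in the last column.

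Of 11 corepressor and coactivator genes, 2 rose and 2 fell in MB468 at 0.5 h, 1 and 1 at 2 h, and 5 and 4 at 12 h, with list medians of 0.02, 0.01, and 0.02, so that the counts followed the shares of all genes over time. Spike-in scaling gave 0 and 2, 0 and 10, and 3 and 4. At 12 h the acetyltransferase genes CREBBP (1.34) and EP300 (0.88) and the corepressor scaffold SIN3A (0.57) rose, and KAT2B (-0.83), HDAC1 (-0.30), and HDAC3 (-0.20) fell. In R8, 3 rose and 2 fell at 0.5 h, 0 were called at 2 h by edgeR or DESeq2 (1 lower at an unadjusted p under 0.05 by edgeR), and 4 rose and 3 fell at 12 h (0 and 1, 0 and 0, and 2 and 3 with spike-in scaling). The response difference at 12 h was called lower in R8 for 5 (1 with spike-in scaling) and higher for 3. The shares of all genes tested were 30.3% and 26.2%. Those lower were led by CREBBP (-1.06), SIN3B (-0.60), and EP300 (-0.57), and those higher were HDAC2 (0.41), HDAC1 (0.37), and HDAC3 (0.27).

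Of 9 genes for ubiquitin ligases and kinases that act on KLF2, KLF4, and KLF5, 4 rose and 3 fell in MB468 at 0.5 h, 0 and 1 at 2 h, and 6 and 0 at 12 h, among them MAP3K3 (0.64), SMURF2 (0.62), and VHL (0.55). The list medians there were 0.10, 0.00, and 0.42. In R8 the counts were 3 and 3, 1 and 2, and 3 and 3. Spike-in scaling gave 0 and 3, 0 and 8, and 3 and 1 in MB468, and 1 and 1, 0 and 0, and 2 and 3 in R8. MAPK7, which encodes the kinase ERK5 upstream of MEF2 and KLF2, was at 0.50 in MB468 and -0.48 in R8 at 12 h, a difference of -0.98 that was called.

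Of 16 genes for inputs to KLF transcription (MEF2 and SRF factors, the glucocorticoid receptor, and TGF-beta signalling), 13 were tested. SMAD4 did not pass the filter, with group means from 2.09 (R8 at 0.5 h) to 6.52 (MB468 at 12 h) normalized counts. In MB468, 1 rose and 4 fell at 0.5 h, 1 and 3 at 2 h, and 6 and 6 at 12 h, and in R8 the counts were 2 and 8, 0 and 1, and 3 and 8. The list medians were -0.10, -0.02, and -0.04 in MB468 and -0.20, -0.01, and -0.16 in R8. Spike-in scaling gave 0 and 6, 0 and 10, and 0 and 6 in MB468, and 1 and 2, 0 and 0, and 1 and 4 in R8. SMAD3, a TGF-beta effector, fell in MB468 at 0.5 h (-1.28) and less in R8 (-0.23), a difference of 1.06 that was called. SRF fell in both lines at 0.5 h (-0.86 and -0.55). NR3C1, the glucocorticoid receptor gene, rose by 0.54 in MB468 and 0.22 in R8 at 0.5 h.

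Of 6 glucocorticoid receptor targets other than KLF9, 5 were tested. At 0.5 h, 3 rose in each line: DUSP1 (4.39 in MB468 and 4.53 in R8), SGK1 (1.66 and 1.89), and TSC22D3 (0.95 and 1.06). PER1, a circadian clock gene, went the other way in R8, from a mean of 930 to 404 normalized counts (-1.20), and was at -0.39 in MB468, which was not called. At 2 h, 4 were higher and 1 lower in MB468, led by DUSP1 (1.78), PER1 (1.49), and SGK1 (1.34), and 3 were higher in R8, PER1 (0.77), SGK1 (0.62), and TSC22D3 (0.40). The difference at 2 h was called lower in R8 for DUSP1 (-1.94) and SGK1 (-0.72). At 12 h, 1 was higher and 4 lower in MB468, and 1 higher and 3 lower in R8. Spike-in scaling gave 3 higher and 1 lower at 0.5 h in each line, 3 and 1 in MB468 and 2 and 0 in R8 at 2 h, and 0 and 4 and 1 and 3 at 12 h. FKBP5, a gene known for strong glucocorticoid induction, was at -0.09 in MB468 and 0.00 in R8 at 0.5 h and was not called there.

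Of 18 genes reported in other systems as KLF targets, 15 were tested. Against 0 h, 4 rose and 3 fell in MB468 at 0.5 h, 4 and 2 at 2 h, and 5 and 6 at 12 h, and in R8 the counts were 4 and 6, 3 and 2, and 8 and 4. The list medians were 0.00, 0.03, and 0.11 in MB468 and -0.06, 0.00, and 0.29 in R8. Spike-in scaling gave 1 and 4, 2 and 10, and 3 and 6 in MB468, and 3 and 2, 3 and 1, and 8 and 3 in R8. CDKN1A, which encodes p21 and is a KLF4 and KLF6 target, was 1.33 higher in R8 than in MB468 at 0 h. It fell at 0.5 h in MB468 (-0.47) and in R8 (-0.52), when KLF4 and KLF6 rose, was above 0 h at 2 h (1.04 and 0.60), and below it at 12 h (-1.49 and -2.41). IVL, a differentiation gene of squamous epithelium and a KLF4 target, was 4.62 higher in R8 at 0 h. It fell in R8 at 0.5 h (-0.46), was above 0 h at 2 h in both lines (1.28 and 1.59), and was still above 0 h in R8 at 12 h (0.37), when KLF4 had fallen. In MB468 it was at -0.43 at 0.5 h and 0.66 at 12 h, neither called. Any link of the CDKN1A and IVL courses to KLF4 or KLF6 was not tested. SMAD7, an inhibitor of TGF-beta signalling, rose at 0.5 h by 0.55 in MB468 and 1.58 in R8, a difference of 1.03 that was called. At 2 h the response difference was called for 1 of the 15 (SMAD7, -0.70).

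For each member the genes with the most similar profile were taken by Pearson's r of log2 CPM over the 24 libraries among 12888 genes with a mean of 1 CPM or more. The 24 points share groups and libraries, so r describes these libraries only. KLF2 ran closest to DUSP1 (r = 0.916), FOS (0.913), and SLC25A25 (0.904), and KLF10 to ELF3 (0.947), IER2 (0.943), and EGR1 (0.940), of which FOS, IER2, EGR1, and DUSP1 are classical immediate-early genes. KLF6 ran closest to PLK2 (0.966), SGK1 (0.949), and GRAMD1C (0.928). KLF9 ran closest to another family gene, KLF12 (0.964), then PTK2 (0.962) and MTHFD2 (0.962). KLF7 was closest to INSR (0.972), KLF5 to TRAK1 (0.961), KLF3 to MADD (0.947), KLF4 to RHOU (0.941), and KLF11 to PIM3 (0.934). KLF13 had the weakest neighbour, SCARA5 (0.822). Among the members themselves, r ran from -0.607 for KLF10 and KLF13 to 0.923 for KLF7 and KLF11, with KLF7 and KLF9 at 0.818, KLF5 and KLF9 at 0.817, KLF4 and KLF6 at 0.807, and KLF2 and KLF10 at 0.806 next.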

How the data were processed

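Poly(A) RNA of 24 libraries was sequenced by the authors with an unstranded kit and spike-in RNAs, as single-end reads. Per the labels and methods, HISAT2 2.1.0 aligned the reads to hg38 plus the spike-ins, and featureCounts (Subread 1.5.3) counted them per gene; the annotation release is not given in the sources used here. The table used here holds the deposited counts, not normalized, of 26645 gene entries and 92 spike-ins. A deposited table of normalized counts and a deposited table of the authors' fold changes and p-values were not used. No per-sample column was left without a sample.

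With edgeR 4.0.16 on R 4.3.3, spike-ins were set aside and 14741 genes were kept by filterByExpr (at least 10 counts, total of 15 or more). TMM factors were computed, and a robust quasi-likelihood model with a mean per group gave 14 comparisons, adjusted by Benjamini-Hochberg over all genes tested. Intervals are the estimate ± 1.96 SE. The members and lists were chosen with earlier results of these data known, so they give no independent support. List genes were named by the largest called change, at most 3 per direction, list, and comparison, with some named after their values were seen (MAPK7, SRF, NR3C1, FKBP5, CDKN1A, IVL, SMAD7, SMAD3, SP3, SP6). The 3 most similar genes per member were taken by Pearson's r of log2 CPM with a prior count of 2. Other settings tried were the size factors of DESeq2 1.42.0, its Wald test, library sizes taken from the spike-in totals, all genes unfiltered, only genes with 10 or more counts in all libraries, a block for the replicate number, and each library left out in turn. The code was tested on simulated data.

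Transcript lengths and overlaps come from GENCODE (GRCh38) and promoters from RefSeq. Exons of KLF3 share 265 bases with KLF3-AS1 on the other strand, and those of KLF4, KLF7, and KLF11 also share bases with opposite-strand genes, whose reads an unstranded library cannot tell apart. MRTFA and MRTFB were not found under these symbols.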

Additional observations from a re-analysis of the deposited data

Results flagged for a closer look

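The changes from 0 h differed between the lines, by the contrast of R8 response minus MB468 response in edgeR's quasi-likelihood model, for 17 member and time pairs. At 0.5 h the differences were -0.65 for KLF4, -0.34 for KLF5, and -0.39 for KLF6. Of all genes tested, 1.70% were called lower and 1.20% higher there. The KLF4 call was lost on leaving out any of 8 of the 12 libraries. At 2 h the differences were -0.54 for KLF3, -1.39 for KLF4, -1.14 for KLF6, -0.73 for KLF7, -0.75 for KLF9, -1.65 for KLF10, and -0.85 for KLF11. Of all genes tested, 2.88% were called lower and 2.19% higher there. At 12 h the differences were 0.25 for KLF3, -1.95 for KLF4, -0.67 for KLF5, -0.18 for KLF6, -0.75 for KLF7, -1.41 for KLF10, and -1.16 for KLF11. Of all genes tested, 30.3% were called lower and 26.2% higher there. The KLF6 call was lost on leaving out any of 9 of the 12 libraries, and its value was 0.08 with spike-in scaling. KLF4 started 1.83 higher and KLF7 and KLF9 1.32 and 1.67 lower in R8 at 0 h on the log2 scale, and the part of these starting levels in the differences was not tested. Groups of 3 libraries are too small for the test of single outlying samples.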

How the results depend on the processing

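The 10 members' log2 fold changes in 14 comparisons gave 140 values. Their direction and call were the same in 136 with DESeq2's size factors, 134 with at least 10 counts in every library, 135 without the low-count filter, 132 with DESeq2's Wald test, and 88 with spike-in totals as library sizes. Deviations of same-numbered libraries from their group means correlated at -0.411 to 0.466 in single comparisons and at -0.0199 on average over all groups, and in no comparison were all over 0.1, so the numbers were not taken to pair the libraries. With the replicate number as a block 137 of 140 were the same, KLF2 in R8 at 2 h turned to 0.00, KLF2 from 2 to 12 h in MB468 lost its call (-0.69), and KLF5 from 0.5 to 2 h in MB468 was called (0.13). Beside spike-in scaling and left-out libraries, calls were also lost for KLF3 between the lines at 0 h (without the filter and with DESeq2's Wald test, 0.14 each), KLF3 at 12 h in MB468 (both DESeq2 settings and the stricter filter, 0.12 each), KLF5 at 0.5 h in MB468 (Wald test, 0.13), and the KLF6 response difference at 12 h (both DESeq2 settings, -0.15 each). The KLF9 response difference at 0.5 h gained a call without the filter, with the stricter filter, and with the Wald test (0.37 each). The stricter filter also gave calls to KLF2 at 2 h (0.91) and KLF5 from 0.5 to 2 h (0.14) in MB468. Without the filter, KLF4 in R8 was called at 2 h (0.25) and from 0.5 to 2 h (-0.25). Whether spike-ins were added per cell or per amount of RNA is not given in the sources used here.

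Spike-in scaling moved the number of called members to 5 in MB468 at 2 h, 4 at 12 h, 3 from 0.5 to 2 h, and 3 from 2 to 12 h, to 0 in R8 at 2 h, and to 0 and 3 for the response difference at 0.5 and 2 h; the cause was not tested. It reversed 19 values. For R8 against MB468 at 0 h these were KLF10 (-0.14), KLF13 (0.00), KLF2 (-0.24), and KLF3 (-0.17). In MB468 they were KLF11 (-0.19), KLF5 (-0.07), and KLF7 (-0.17) at 0.5 h, KLF5 (-0.16) at 2 h, KLF2 (-0.06), KLF3 (-0.10), and KLF5 (-0.23) at 12 h, KLF5 (-0.08) from 0.5 to 2 h, and KLF10 (0.00) from 2 to 12 h. In R8 at 2 h they were KLF2 and KLF3 (-0.04 each), and in the response differences KLF11 (0.18) and KLF3 (0.12) at 0.5 h, KLF5 (0.17) at 2 h, and KLF6 (0.08) at 12 h. DESeq2's size factors, its Wald test, and the stricter filter each reversed KLF11 from 2 to 12 h and KLF5 at 12 h in MB468 (-0.01 each).

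Leaving out each library in turn left 930 of 1020 values the same, with 53 calls lost, 10 gained, and 27 values reversed. The number of called members stayed within 1.5 times in every comparison. Reversed values ranged, in MB468, from -0.04 to 0.06 for KLF11 and -0.02 to 0.08 for KLF7 at 0.5 h, from -0.17 to 0.40 for KLF2, -0.22 to 0.04 for KLF4, and -0.02 to 0.03 for KLF5 at 12 h, and from -0.03 to 0.05 for KLF11 from 2 to 12 h. In R8 at 2 h they ranged from -0.27 to 0.18 for KLF2, -0.06 to 0.05 for KLF3, and -0.01 to 0.10 for KLF5, and between the lines at 0 h from -0.23 to 0.29 for KLF2. The KLF13 response difference ranged from -0.12 to 0.19 at 0.5 h, -0.06 to 0.25 at 2 h, and -0.18 to 0.31 at 12 h. KLF2 and KLF13 were read at low counts, which limits what can be said of them.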
